A study of Mus musculus with 10 samples.

Results

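The core binding factor genes encode a DNA-binding alpha subunit, RUNX1, RUNX2 or RUNX3, and their shared beta subunit, CBFB. Of the 4 genes Runx1, Runx2, Runx3 and Cbfb, 3 had probe sets with a listed gene name on the array, and Runx2 was not analysed here. All probe sets of these genes were taken, which gave 9 of 45037 probe sets: 6 for Runx1, 2 for Runx3 and 1 for Cbfb. Against the empty vector, Runx1 signal rose with both fusion constructs, whereas Runx3 and Cbfb signal fell with intact AML1/ETO.

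The study compared mouse bone marrow cells transduced with a MigR1 retrovirus in 3 groups. The virus encoded AML1/ETO with the W692A substitution and the green fluorescent protein marker (W692A, 4 arrays), intact AML1/ETO with the marker (AML1/ETO, 3 arrays), or the marker alone (GFP, 3 arrays). All groups came from C57BL/6 mice of 5 to 6 weeks and were cultured with interleukin-3, interleukin-6 and stem cell factor. At 48 hours after the second transduction 25000 cells a sample were sorted that were alive, carried Sca1, cKit and the GFP marker, and lacked lineage antigens. The labels describe independent transductions but do not say whether each used other mice, so p-values measure the spread between transduced cultures. Expression came from the retroviral vector in cultured cells, which are not leukaemia cells. The design asks what the fusion does to these cells and what is altered by a substitution in its MYND domain, the part of ETO that binds the corepressors SMRT and N-CoR.

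RUNX proteins bind DNA through the Runt domain, and CBFB, which does not bind DNA itself, strengthens that binding and protects the alpha subunit from degradation. RUNX1, also called AML1, is required for blood stem cells to form in the embryo and acts in megakaryocyte and lymphoid development. RUNX3 acts in T cells, NK cells and other lineages. In AML1/ETO the Runt domain of RUNX1 is joined to ETO, which recruits corepressors, so that the fusion can bind the sites of the normal factor and can bind CBFB.

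The RUNX binding motif itself stands near the upstream start of Runx1 and of Runx3. RefSeq lists 5 start windows for the 3 measured genes in GRCm38.p6, each 300 bases long, from 250 before to 50 after a start. Runx1 lies at chr16:92601466-92826074, Runx3 at chr4:135120645-135177990 and Cbfb at chr8:105170674-105217989. The sequences below are shown because the core binding factor and the fusion recognise the same motif, and because both genes carry the same pair of copies. Their signals moved in opposite directions with AML1/ETO, and any part of these copies in that was not tested. Capitals mark the letters ACCACA, the other strand of TGTGGT.
Runx1, chr16:92826025-92826054, minus strand: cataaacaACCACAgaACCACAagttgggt
Runx3, chr4:135120503-135120532, plus strand: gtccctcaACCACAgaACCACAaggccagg
The 30 bases of Runx1 run from 21 to 50 bases after its upstream start, and those of Runx3 from -142 to -113 relative to its own. Both genes share an unbroken run of 18 bases around the pair. That run was found, on either strand, in 4 of 32851 windows of the table, those of Runx1, Runx2, Runx3 and the noncoding Gm16225, whose window overlaps that of Runx3. A search for TGTGGT or ACCACA, which reads both strands and counts overlapping matches, found at least 1 match in 16.8% of all windows and at least 2 in 1.81%. The downstream start windows of Runx1 and Runx3 and the window of Cbfb did not hold these letters. A match is a stretch of letters and no measure of binding.

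Signals are log intensities, read as log2 from the RMA method since the file states no base. A bound of 2.04, the highest value of any bacterial control probe set that should have no target, marks background, and a group mean below it has no measured level. Control probe sets differed between groups. The Gapdh 3′ minus 5′ difference, which falls when amplified RNA is longer, ranged from 3.81 to 4.17 on W692A arrays, from 4.01 to 5.04 on AML1/ETO arrays and from 4.83 to 4.99 on GFP arrays. The 18S ribosomal RNA signal was 8.76 ± 0.181 (SD, n = 4) on W692A arrays, 8.40 ± 0.236 (n = 3) on AML1/ETO arrays and 7.95 ± 0.196 (n = 3) on GFP arrays. Both measures separate W692A from GFP arrays completely. The 18S signal also separates AML1/ETO arrays (8.18 to 8.65) from GFP arrays (7.74 to 8.13), so it is confounded with group in both comparisons against GFP. Fits that hold these measures constant are given beside results they change, or in the closing section on processing. Of the sort markers, Kit was below the bound on every array by its brightest probe set, and no value is given for Sca1. The other 7 measured stem and progenitor markers had means above the bound in each group. The mean of the 8, Kit included, ranged from 4.78 to 5.04 on W692A arrays, from 5.59 to 5.71 on AML1/ETO arrays and from 3.79 to 3.89 on GFP arrays. Against GFP, 6 of the 8 were called higher with W692A and 7 with AML1/ETO, the latter with Kit among them. With each construct 1 was called lower, Flt3, with means of 4.11 (W692A), 4.10 (AML1/ETO) and 5.06 (GFP). In a sorted population, fewer cells of a type and less RNA per cell cannot be told apart.

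**Figure D1:**
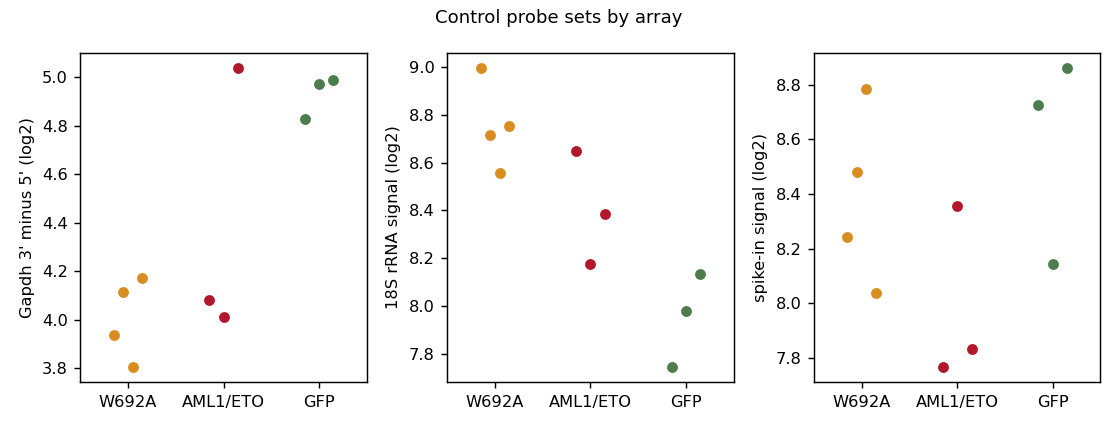
Control values of the 10 arrays: the Gapdh 3′ minus 5′ difference, the mean 18S ribosomal RNA signal and the mean of 18 labelled spike-in probe sets, all on the log2 scale. Each point is an array, and the W692A points lie below all GFP points for Gapdh and above all GFP points for 18S. The AML1/ETO points also lie above all GFP points for 18S.

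Runx1 was the member that moved with both constructs. Its brightest probe set, 1422864_at, had signals of 7.04, 7.09, 6.67 and 6.93 with W692A. With AML1/ETO they were 6.86, 6.61 and 6.89, and with GFP 5.86, 5.90 and 5.81. Every construct array lay above every GFP array, while the W692A and AML1/ETO arrays overlapped. The mean was 6.93 ± 0.186 (SD, n = 4) with W692A, 6.78 ± 0.155 (n = 3) with AML1/ETO and 5.86 ± 0.0463 (n = 3) with GFP. Signal was therefore 2.11-fold higher with W692A than with GFP (log2 difference 1.07 ± 0.121, SE, limma adjusted p = 5.12e-05) and 1.90-fold higher with AML1/ETO than with GFP (0.93 ± 0.130, limma adjusted p = 9.90e-05). In a fit holding the 18S signal constant, which was added once the values were known, the W692A difference was 0.74 and its adjusted p = 0.317, while the AML1/ETO difference was 0.74 with adjusted p = 0.0155. With the Gapdh difference held constant, the W692A difference was 1.28 with adjusted p = 0.00501. The part of RNA quality in the W692A result was not tested beyond these fits.

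**Figure D2:**
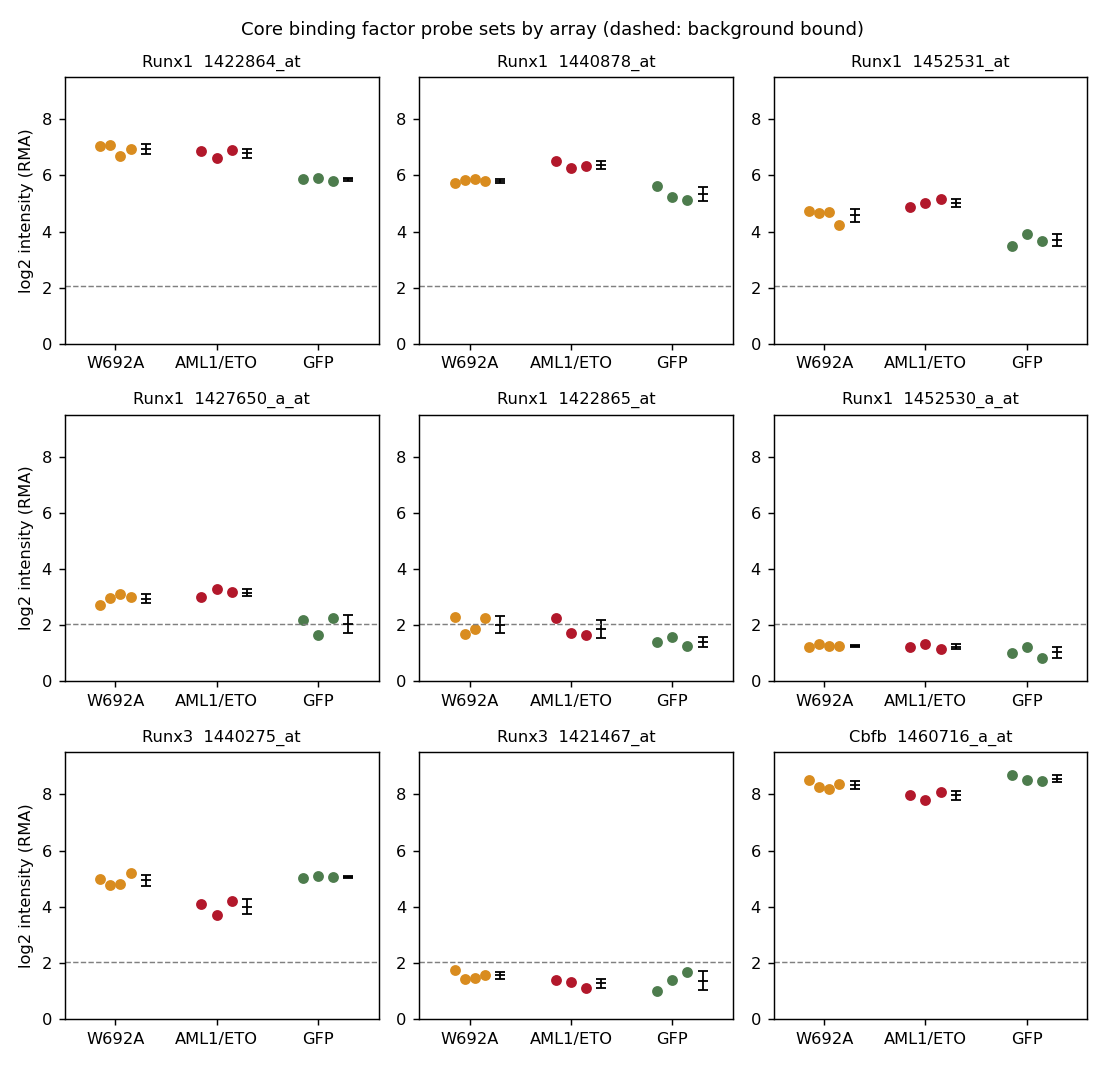
Signal of each probe set of Runx1, Runx3 and Cbfb on each array (log2 intensity), with W692A, AML1/ETO and GFP from left to right. Points are arrays, black bars are mean ± SD, and the dashed line is the background bound of 2.04. For 1422864_at of Runx1 both constructs lie above GFP, and for 1440275_at of Runx3 the 3 AML1/ETO arrays lie below all others.

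Probe set 1440878_at of Runx1 ranked the constructs differently. It gave 5.73, 5.83, 5.89 and 5.78 with W692A, 6.51, 6.26 and 6.32 with AML1/ETO, and 5.61, 5.23 and 5.13 with GFP. The 3 groups did not overlap, with AML1/ETO highest, W692A between and GFP lowest. It was 2.06-fold higher with AML1/ETO than with GFP (a log2 difference of 1.04 ± 0.133, SE, limma adjusted p = 4.22e-05) and 1.40-fold higher with W692A than with GFP (0.48 ± 0.124, limma adjusted p = 0.0244). The W692A call was lost without GFP replicate 2 (adjusted p = 0.101), GFP replicate 3 (0.104) or W692A replicate 2 (0.0533), 3 (0.0566) or 4 (0.0524), and with the Gapdh difference (0.665) or the 18S signal (0.410) as a covariate. Its log2 difference was 0.38 to 0.68 over all alternatives.

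For 1452531_at of Runx1 the signals were 4.72, 4.64, 4.71 and 4.23 with W692A, 4.86, 5.02 and 5.14 with AML1/ETO, and 3.49, 3.92 and 3.65 with GFP. These groups did not overlap either and stood in the same order. This probe set was higher with AML1/ETO than with GFP (by 1.32 ± 0.154 on the log2 scale, SE, limma adjusted p = 1.73e-05), and was 1.85-fold higher with W692A than with GFP (0.89 ± 0.144, limma adjusted p = 0.00116). The W692A call was lost with the Gapdh difference (adjusted p = 0.0948) or the 18S signal (0.369) as a covariate. Over all alternatives, these 2 included, the log2 difference between W692A and GFP stayed between 0.79 and 1.00.

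The dimmer 1427650_a_at of Runx1 had 2.72, 2.96, 3.11 and 3.01 with W692A, 3.02, 3.28 and 3.19 with AML1/ETO, and 2.19, 1.66 and 2.24 with GFP. Both constructs lay above GFP. The GFP mean (2.03) and GFP replicate 2 were below the background bound, so folds are lower limits computed with replicate 2 set to the bound. The log2 differences below use the values as deposited, so their size is uncertain. AML1/ETO arrays exceeded GFP arrays at least 2.01-fold (a log2 difference of 1.13 ± 0.157, SE, limma adjusted p = 8.92e-05), and W692A arrays exceeded them at least 1.73-fold (0.92 ± 0.147, limma adjusted p = 0.00106). The W692A call was lost with the Gapdh difference (adjusted p = 0.140) or the 18S signal (0.0807) as a covariate, while its log2 difference was 0.73 to 1.34 over all alternatives.

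The last probe sets of Runx1 stood at background. For 1422865_at the signals were 2.27, 1.70, 1.86 and 2.27 with W692A, 2.24, 1.71 and 1.66 with AML1/ETO, and 1.39, 1.57 and 1.25 with GFP. All GFP arrays were below the bound, and only 2 of 4 W692A and 1 of 3 AML1/ETO arrays exceeded it. The W692A difference passed (0.62 ± 0.172, SE, limma adjusted p = 0.0359), the AML1/ETO difference did not (0.46 ± 0.184, limma adjusted p = 0.104), and no fold is given. The W692A call was lost without GFP replicate 1, 2 or 3 or W692A replicate 1 or 4 (adjusted p = 0.0509 to 0.125), with array medians subtracted (0.0551) and with the Gapdh (0.768) or 18S (0.995) covariate. Here the W692A difference was 0.014 to 0.73 over all alternatives. Probe set 1452530_a_at ranged from 1.24 to 1.31 with W692A, from 1.14 to 1.32 with AML1/ETO and from 0.85 to 1.23 with GFP, all below the bound, and passed in no comparison.

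In all, 4 of the 6 Runx1 probe sets were called higher with AML1/ETO than with GFP and 5 with W692A than with GFP, and 0 were called lower in either. All 6 had positive differences in both comparisons. Among all probe sets limma called 9.12% higher and 10.0% lower with AML1/ETO, and 3.53% higher and 5.36% lower with W692A. The probe sets of a gene measure the same samples and often the same transcripts, so they are not independent. Which exons they cover was not used here, so that RNA of the construct and RNA of the cell's own Runx1 gene cannot be told apart. Runx1t1, the mouse gene of ETO, had 3 of 6 probe sets called higher with AML1/ETO than with GFP, all with GFP means below the bound. Of these 1437784_at was at least 1.68-fold higher (limma adjusted p = 1.09e-05), while the AML1/ETO mean of 1448785_at, 1.99, was below the bound as well. W692A values of Runx1t1 are not given here.

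Runx3 fell with AML1/ETO, and the W692A difference from GFP did not pass. Its brighter probe set, 1440275_at, had signals of 4.98, 4.77, 4.81 and 5.20 with W692A, 4.11, 3.71 and 4.19 with AML1/ETO, and 5.02, 5.11 and 5.05 with GFP. The 3 AML1/ETO arrays were the lowest of the 10, and the W692A arrays spanned the GFP range. The mean was 4.94 ± 0.194 (SD, n = 4) with W692A, 4.00 ± 0.256 (n = 3) with AML1/ETO and 5.06 ± 0.0452 (n = 3) with GFP. Runx3 was 2.08-fold lower with AML1/ETO than with GFP (a log2 difference of -1.06 ± 0.145, SE, limma adjusted p = 8.15e-05). With W692A the difference from GFP was -0.12 (95% interval -0.41 to 0.17, limma adjusted p = 0.713).

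The difference in Runx3 between the constructs was itself tested. Signal was 1.92-fold higher with W692A than with AML1/ETO (a log2 difference of 0.94 ± 0.136, SE, limma adjusted p = 2.49e-04), and it passed under every alternative fit run here, with differences of 0.61 to 1.11. The smallest of these came from the mean of both Runx3 probe sets. The other one, 1421467_at, was below the bound on all arrays (1.43 to 1.74 with W692A, 1.10 to 1.38 with AML1/ETO, 1.00 to 1.67 with GFP) and passed in no comparison. The Runx3 result thus rests on 1 probe set.

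T and NK cells are known for Runx3 expression, so their markers are given beside it. Of 6 measured T and NK markers, Cd3e, Cd3g, Cd8a, Cd4 and Ncr1 were below the bound on every array. Gzmb, the granzyme B gene, ranged from 2.75 to 3.78 with W692A, from 2.86 to 4.60 with AML1/ETO and from 5.63 to 5.79 with GFP. It was lower with both constructs, whereas Runx3 was lower with AML1/ETO. The mean of the 6 ranged from 1.36 to 1.48 on W692A arrays, from 1.32 to 1.66 on AML1/ETO arrays, and was at least 1.74 on GFP arrays.

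Cbfb, the beta subunit, fell with AML1/ETO. Its probe set, 1460716_a_at, had signals of 8.53, 8.28, 8.19 and 8.35 with W692A, 7.98, 7.80 and 8.10 with AML1/ETO, and 8.69, 8.53 and 8.47 with GFP. The AML1/ETO arrays lay below all others, and the highest W692A array reached into the GFP range. The mean was 8.34 ± 0.142 (SD, n = 4) with W692A, 7.96 ± 0.150 (n = 3) with AML1/ETO and 8.56 ± 0.117 (n = 3) with GFP. Cbfb was 1.52-fold lower with AML1/ETO than with GFP (a log2 difference of -0.60 ± 0.126, SE, limma adjusted p = 0.00271), but adjusted p = 0.0571 with the Gapdh difference as a covariate. The W692A difference from GFP was -0.23 (95% interval -0.48 to 0.03, limma adjusted p = 0.312).

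Between the constructs, Cbfb was 1.30-fold higher with W692A than with AML1/ETO (a log2 difference of 0.38 ± 0.117, SE, limma adjusted p = 0.0478). This call stood at the threshold: 14 of 23 alternatives ended it, among them each GFP array left out in turn (adjusted p = 0.0505 to 0.0590), AML1/ETO replicate 1 (0.114) or 2 (0.216), W692A replicate 1 (0.119), 2 (0.0668) or 4 (0.0986), a further quantile normalization (0.0614), and the replicate block (0.0869).

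**Figure D3:**
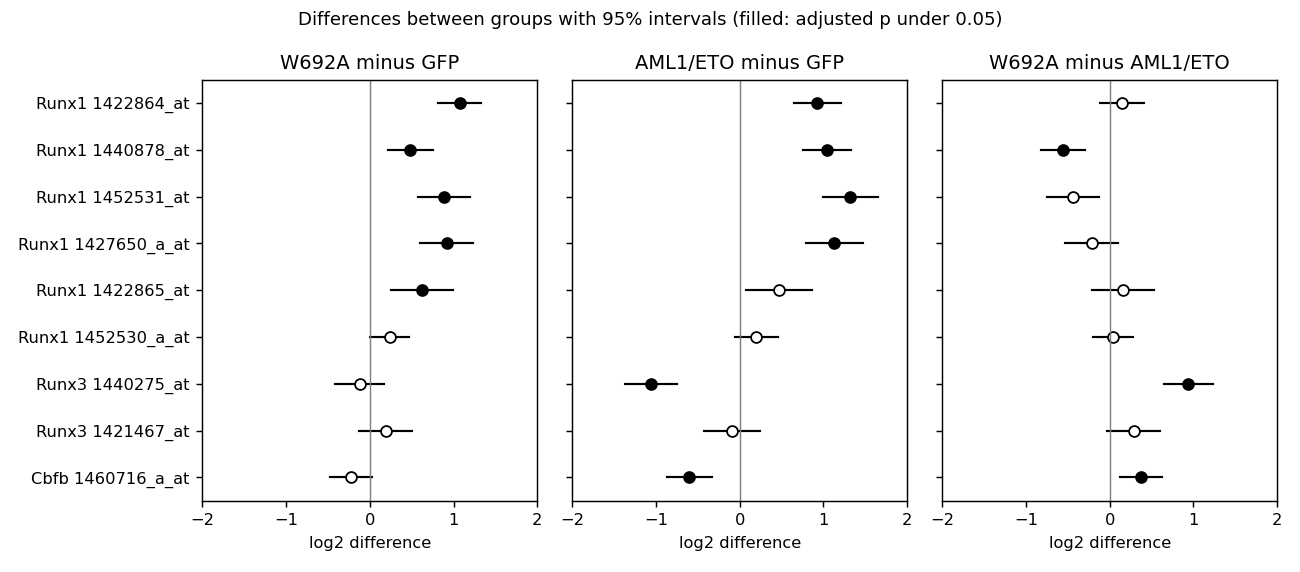
Log2 differences of the 9 probe sets in each comparison, with 95% intervals from limma. Filled points passed at an adjusted p of 0.05. Runx1 probe sets lie right of 0 against GFP in both constructs, while Runx3 1440275_at and Cbfb lie left of 0 with AML1/ETO.

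Counted over the family, 6 of 9 probe sets passed between AML1/ETO and GFP, where 19.1% of all probe sets passed. Between W692A and GFP 5 of 9 passed against 8.89% of all, and between W692A and AML1/ETO 3 of 9 passed against 13.4%, of all probe sets 5.93% higher and 7.44% lower with W692A. Groups did not overlap for 7 of the 9 between AML1/ETO and GFP (31.4% of all probe sets), for 6 between W692A and GFP (17.3%) and for 5 between W692A and AML1/ETO (21.2%). Among the 15080 probe sets that exceeded the bound in some group mean, 47.2% were called between AML1/ETO and GFP, 23.2% between W692A and GFP and 34.6% between W692A and AML1/ETO, and of the 6 such probe sets of the family 6, 4 and 3 were called in the same comparisons. Both comparisons against GFP share the same 3 GFP arrays. The W692A count was 3 without GFP replicate 2, GFP replicate 3 or W692A replicate 4, 1 with the Gapdh difference and 0 with the 18S signal as a covariate. The AML1/ETO count was 6 in each of the fits that left out 1 array.

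Of the 4 Runx1 probe sets above the bound, 1 passed between the constructs. Between W692A and AML1/ETO, 1440878_at was 1.47-fold lower with W692A (a log2 difference of -0.56 ± 0.124, SE, limma adjusted p = 0.00695), though not with the 18S covariate (adjusted p = 0.111). Probe set 1452531_at had a difference of -0.43 ± 0.144 and groups that did not overlap, but missed the threshold (limma adjusted p = 0.0630). It passed with array weights (adjusted p = 0.0243) and in a fit restricted to probe sets above the bound (0.0396). The brightest, 1422864_at, had a difference of 0.15 (95% interval -0.11 to 0.41, limma adjusted p = 0.555), and 1427650_a_at of -0.21 (95% interval -0.53 to 0.10, limma adjusted p = 0.453).

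Within each array, 1422864_at minus 1440878_at of Runx1 was 0.79 to 1.30 with W692A, 0.35 to 0.56 with AML1/ETO and 0.25 to 0.68 with GFP. The W692A arrays did not overlap with either other group, and the AML1/ETO and GFP arrays overlapped. The exact two-sided permutation p was 0.0571 for W692A against AML1/ETO (n = 4 and 3) and likewise against GFP, which is the smallest p that 4 against 3 arrays allow. Adjusted over the 9 such comparisons among Runx1 probe sets it was 0.257. For 3 against 3 arrays the smallest possible p is 0.1. Both smallest values lie above the threshold, so none of the 9 tests could pass, whatever the signals were. The tests therefore cannot decide whether the probe sets differ, and this pair was chosen after its values were seen. The Gapdh difference and the 18S signal, given above, also separate the W692A from the GFP arrays, and their part in these values was not tested.

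Partners of the core binding factor on DNA were described from a list of 22 genes, all measured, each by its brightest probe set. Of these 5 stood at or below the bound in every group, among them Ets1, called higher with AML1/ETO than with GFP. Shares over all genes, given below for each list, include genes at background. Among probe sets above the bound, 47.2% were called between AML1/ETO and GFP, 23.2% between W692A and GFP and 34.6% between W692A and AML1/ETO. With AML1/ETO 7 of the 22 were called higher and 2 lower than with GFP. Of all genes 27.1% were called (12.2% higher and 14.9% lower), and the list median was 0.19 against -0.02 over all genes. The AP-1 gene Fos was 13.2-fold higher (limma adjusted p = 4.91e-09) and Jun 4.96-fold higher. Gata2, a stem and progenitor factor, was 2.19-fold higher (log2 difference 1.13 ± 0.146, SE, limma adjusted p = 4.62e-05) and Fli1, an ETS factor of megakaryocytes, 2.15-fold higher. Cebpa, a granulocytic factor, was 8.04-fold lower (limma adjusted p = 1.75e-07), and Spi1, the gene of PU.1, at least 1.94-fold lower.

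With W692A 6 of the 22 partner genes were called higher and 2 lower than with GFP, against 12.8% of all genes (4.68% higher and 8.11% lower), with a median of 0.16 against 0.01. Fos was 7.12-fold and Jun 2.13-fold higher, Erg, an ETS factor of stem cells, was 1.71-fold and Smad3, of TGF-beta signalling, 1.57-fold higher, and Cebpa was 2.73-fold lower. The count was 5 without GFP replicate 2, W692A replicate 2 or W692A replicate 4, and 1 with the Gapdh or the 18S covariate. Between W692A and AML1/ETO 3 were called higher and 6 lower, against 19.0% of all genes (8.75% higher and 10.3% lower), with a median of -0.11 against 0.03. Cebpa was 2.95-fold higher with W692A than with AML1/ETO, Lyl1, a stem cell factor, 1.58-fold and Smad3 1.33-fold higher. Jun was 2.34-fold, Fos 1.86-fold and Fli1 1.58-fold lower, and Tal1, a partner in the stem cell complex with Runx1, 1.53-fold lower. Against GFP, Erg was also called higher with AML1/ETO (1.80-fold), and Tal1 was called higher with each construct.

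Cofactors of RUNX proteins and enzymes that modify them were called in both directions. Of 37 listed genes 34 were measured, and 5 of these stood at or below the bound in every group. Tle2, among these 5, was called lower with each construct than with GFP. With AML1/ETO 3 of the 34 were called higher and 8 lower than with GFP. That is 32.4% against 27.1% of all genes (median -0.01 against -0.02) and 47.2% of probe sets above the bound. Kat6b, of a histone acetyltransferase family that binds RUNX proteins, was 1.74-fold higher, Kmt2a, a histone methyltransferase, 1.70-fold and Itch, a ubiquitin ligase, 1.32-fold higher. Prmt1, an arginine methyltransferase that acts on RUNX1, was 2.07-fold lower (log2 difference -1.05 ± 0.113, SE, limma adjusted p = 8.38e-06). Skp2 was 2.33-fold, Fzr1 1.82-fold and Cdc20 1.65-fold lower, all subunits or activators of ubiquitin ligases of the cell cycle. The count of 11 was 7 without GFP replicate 1 or AML1/ETO replicate 1, 6 with the Gapdh, 5 with the spike-in and 3 with the 18S covariate.

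With W692A 2 of the 34 cofactor genes were called higher and 4 lower than with GFP, which is 17.6% against 12.8% of all genes (median -0.05 against 0.01), and 0 were called with the Gapdh or the 18S covariate. Tle3, a Groucho corepressor that binds the end of RUNX proteins, was 1.62-fold and Kmt2a 1.60-fold higher, while Fzr1 was 1.88-fold, Wwp1, a ubiquitin ligase, 1.57-fold and Skp2 1.54-fold lower. Between W692A and AML1/ETO 5 were called higher and 5 lower, which is 29.4% against 19.0% of all genes (median -0.07 against 0.03). Tle3 was 2.02-fold, Prmt1 1.84-fold, Cdc20 1.79-fold and Skp2 1.51-fold higher with W692A than with AML1/ETO. Kat6b was 1.54-fold, Tle1, another Groucho gene, 1.53-fold, Wwp1 1.42-fold and the kinase gene Hipk2 1.41-fold lower.

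Genes reported as RUNX1 or core binding factor targets were called in both directions. Of 35 listed genes 32 were measured, and 11 of these stood at or below the bound in every group. With AML1/ETO 5 were called higher and 10 lower than with GFP, which is 46.9% against 27.1% of all genes (median -0.09 against -0.02). The repressor gene Gfi1 was 5.30-fold higher (log2 difference 2.41 ± 0.222, SE, limma adjusted p = 1.85e-06), and its paralog Gfi1b was 3.54-fold lower (-1.83 ± 0.197, limma adjusted p = 8.43e-06). Cd14, a monocyte receptor, was 7.07-fold higher, Itgal, an integrin chain, 2.83-fold higher and the platelet chemokine Pf4 3.64-fold higher. Nfe2, a platelet factor, was 8.06-fold lower (limma adjusted p = 2.20e-08) and Ighm, an antibody heavy chain, 4.35-fold lower.

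With W692A 5 of the 32 target genes were called higher and 11 lower than with GFP, which is 50.0% against 12.8% of all genes (median -0.09 against 0.01). Cd14 was 2.66-fold and Itgal 1.46-fold higher, and Csf3r, the receptor of granulocyte colony-stimulating factor, was higher by 0.59 on the log2 scale. Csf1r, the receptor of macrophage colony-stimulating factor, was 2.18-fold higher (limma adjusted p = 1.70e-05), Ighm 4.24-fold lower, Elane, neutrophil elastase, 3.75-fold lower and Nfe2 3.29-fold lower. With AML1/ETO, Csf1r was also called higher than with GFP (1.35-fold) and Elane lower (2.32-fold). The count of 16 was 8 with the Gapdh and 2 with the 18S covariate. Between W692A and AML1/ETO 5 were called higher and 5 lower, which is 31.2% against 19.0% of all genes (median -0.01 against 0.03). Nfe2 was 2.45-fold, Csf1r 1.61-fold and Csf3r 1.49-fold higher with W692A than with AML1/ETO, while Gfi1 was 4.53-fold, Cd14 2.66-fold, Pf4 2.55-fold and Itgal 1.94-fold lower. Cebpa, with the values given above, and Spi1 stand in both the partner and the target list. Cell type markers are given beside the target genes, but Itga2b, Pf4, Csf1r, Cd14, Elane, Mpo and Csf3r are target genes themselves. The marker counts are therefore not separate from the target counts. Of 5 measured megakaryocyte markers 4 were lower and 1, Pf4, higher with each construct than with GFP. Of 7 measured monocyte and macrophage markers 4 were higher with each. Of 8 neutrophil markers, which include Elane, Mpo and Csf3r, 3 were higher and 4 lower with W692A than with GFP, and 2 were higher and 2 lower with AML1/ETO than with GFP. Of 6 mast cell and basophil markers 2 were higher with W692A and 3 with AML1/ETO than with GFP, and 0 were lower. Their part in the target genes was not tested.

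**Figure D4:**
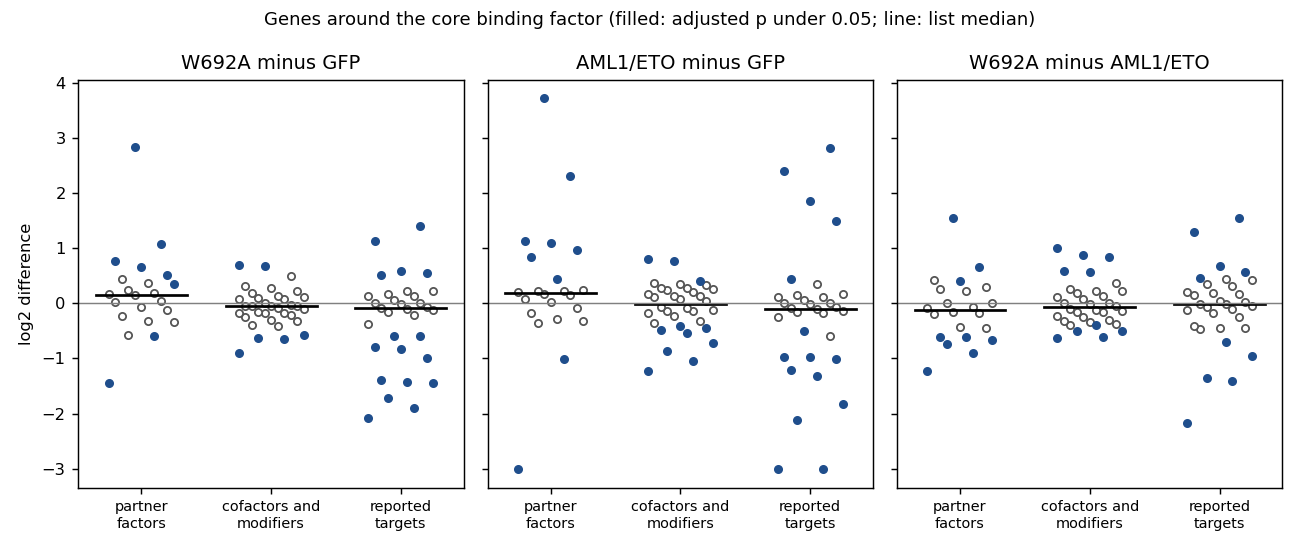
Log2 differences of genes in the 3 lists around the core binding factor, in each comparison, by the brightest probe set of each gene. Each point is a gene, filled where it passed at an adjusted p of 0.05, and lines are list medians, which lie between -0.11 and 0.19. Filled points stand on both sides of 0 in every list.

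Other genes with a like pattern over the 10 arrays were named by Pearson correlation, among 5032 genes (5033 for Cbfb) that exceeded the bound in some group and had a range of at least 1 on the log2 scale. The arrays fall into 3 groups and are not independent of their group, and the values are a description. For Runx1 1422864_at they were Tjp1, a tight junction protein (r = 0.984), Adgrl4, an adhesion receptor of endothelium (0.971), and Csad, an enzyme of taurine synthesis (0.967). For Runx3 1440275_at they were Hells, a chromatin remodelling helicase (0.976), Brix1, of ribosome assembly (0.972), and Zmynd19, a MYND-type zinc finger protein (0.967). For Cbfb they were Thoc1, of the mRNA export complex (0.989), Nusap1, a spindle protein (0.981), and the mismatch repair gene Msh6 (0.978). Hells, for instance, ranged from 4.97 to 5.31 with W692A, from 3.60 to 4.02 with AML1/ETO and from 5.27 to 5.49 with GFP.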

How the data were processed

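RNA of 10 samples was hybridised to 1 Affymetrix array each after 50 ng was amplified in several rounds, per the labels. The authors deposited 1 value per probe set and array, made with RMA per the submitters' processing notes (version not given) and read here as log2. Array medians ranged from 0.932 to 1.01, and differences in total RNA cannot be seen in values so normalized. The array number limits the precision. Of 45101 probe sets, 64 controls were left out. Of the others 34945 had 1 gene symbol (18193 genes), 932 several and 9160 none. Groups come from the sample titles. Groups were compared with limma 3.58.1 (R 4.3.3; lmFit, eBayes) in 1 fit of all 3 groups and all 45037 probe sets, with Benjamini-Hochberg adjustment and a threshold of 0.05. The fit was tested on simulated data. Named list genes are up to 4 higher and 4 lower per list and comparison, by size, called, without overlap and with the higher mean above the bound, and the 3 most like genes per member. Members and lists were chosen with earlier results of these data known. The background bound, and the fits with the 18S covariate or above the bound, were chosen after seeing the data. Probe set genes come from the platform annotation, with symbols updated through RefSeq, and promoters from RefSeq (GRCm38.p6). Other alternatives were a dim filter of 40%, 1 probe set or the mean per gene, further normalization, an intensity trend in the prior, pairwise fits, weighted arrays, a block for the replicate number, Gapdh and spike-in covariates, and each array left out.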

Additional observations from a re-analysis of the deposited data

Results flagged for a closer look

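Of 9 probe sets tested for a stray array among the 4 of the W692A group, 1 had one. W692A replicate 4 had a Runx1 signal of 4.23 for 1452531_at, against 4.64 to 4.72 on the other W692A arrays. Chance alone singles out about 1 in 20 such groups.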

How the results depend on the processing

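The 10 arrays, the RNA amplification and 1 bright probe set each for Runx3 and Cbfb limit these results. Counts of calls that moved by over 1.5 times are given here, and the causes were not tested. With the Gapdh difference as a covariate, the calls between W692A and GFP were 653 over all probe sets (4006 before), 1 of the member probe sets, 1 partner, 0 cofactors and 8 targets, and with the 18S signal, added after seeing the data, 298, 0, 1, 0 and 2. Between AML1/ETO and GFP the cofactor count was 6 with the Gapdh, 5 with the spike-in and 3 with the 18S covariate, and 4980 probe sets passed with the 18S covariate. Between W692A and AML1/ETO the 18S covariate gave 3888 probe sets, 1 member, 4 partners and 6 cofactors, the Gapdh covariate 5 partners and 6 cofactors, and the spike-in covariate 5 partners.

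With 1 array left out, calls between W692A and GFP ranged from 2571 (without GFP replicate 1) to 3921 over all probe sets, from 3 to 5 among members and from 5 to 8 among partners, and the AML1/ETO against GFP cofactor count ranged from 7 to 12. The direction turned only for differences that did not pass. For Runx3 1421467_at, AML1/ETO minus GFP was -0.27 to 0.066 with an array left out (0.066 without GFP replicate 3), and W692A minus GFP was -0.42 with the 18S covariate. For Runx3 1440275_at, W692A minus GFP was 0.036 for the mean of the gene's probe sets and 0.19 with the Gapdh covariate. Between W692A and AML1/ETO, Runx1 was -0.14 for the mean of its probe sets, 1422865_at was -0.11 with the 18S covariate, and 1452530_a_at was -0.0071 with the Gapdh covariate and -0.0079 (without AML1/ETO replicate 3) to 0.084 with an array left out. Fits on 1 value per gene give no count of probe sets.

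Replicate numbers are shared between groups, and deviations of same-numbered arrays correlated at -0.0936 to 0.463, against -0.370 to 0.312 for other numbers. Replicate 1 arrays correlated positively in every pair of groups (0.243 to 0.463). Only 8 of 18 cases matched best with their own number, and the numbers were not taken as pairs. With the replicate block 8813 probe sets passed between AML1/ETO and GFP, 3672 between W692A and GFP and 5705 between W692A and AML1/ETO, with 6, 5 and 2 member probe sets.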
